A study of Mus musculus with 6 samples.

Results

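Saa3 and Orm1 are acute phase genes that were measured in single CD45+ cells from mouse liver carrying breast tumour metastasis. They were taken by gene symbol, as 2 of the 4486 genes in the matrix for adjacent tissue, 2 of 2669 for micrometastasis and 2 of 2643 for macrometastasis. The pair was chosen by its measured UMI levels in these same cells, which differed between neutrophil stages, macrophages and libraries. Those levels are therefore a description, with no test and no p-value.

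Balb/c mice were injected into the heart with 4T07 cells, a tumour line from mouse mammary gland. The tumour cells were either control (Ctrl) or carried a knockdown of Tim3 (Tim3-KD), the gene of an immune checkpoint receptor. The knockdown was made with a short hairpin RNA, and Ctrl cells carried a scrambled one. Tumour cells are not kept by a CD45 sort, so the knockdown cannot be checked here, and the labels give the mice themselves no modification. Immune cells were sorted at day 3 from micrometastasis and from tumour-free adjacent tissue, labelled No tumor, and at day 12 from macrometastasis, each for Ctrl and for Tim3-KD. Each group had 1 library, 6 in all, made from a pooled pair of mice, and differences between libraries thus have no replicate error. The age of the mice is not given in the sources used here. Macrometastasis differs from micrometastasis in both lesion and day, and these cannot be told apart.

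The acute phase response is the change in secreted proteins that follows infection, injury or inflammation. Saa3 encodes a serum amyloid A protein that in mice is made largely outside hepatocytes, by macrophages, fat cells and other stimulated cells. Serum amyloid A proteins attract leukocytes through formyl peptide receptors and act on Toll-like receptors, and interleukin 1, tumour necrosis factor and bacterial products induce their genes. Orm1 encodes orosomucoid, also called alpha-1-acid glycoprotein, a plasma protein of the lipocalin family that hepatocytes secrete and that neutrophils store in granules. Neutrophils mature from promyelocytes through myelocytes and metamyelocytes to segmented cells, and they make the proteins of their successive granule types in that order.

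Saa3 (ENSMUSG00000040026) lies at chr7:46711998-46715700 on the minus strand of GRCm38, with 3 annotated transcripts of up to 4 exons. Orm1 (ENSMUSG00000039196) lies at chr4:63344560-63348163 on the plus strand, with 1 transcript of 6 exons. The 250 bases before the RefSeq start of Saa3 (chr7:46715677-46715926, minus strand, GRCm38.p6) are shown because the level of the gene differed between stages, sites and cells. Capitals mark matches to 2 motifs. The first, TTGCNNAA, is a core of the sites of C/EBP factors, regulators of acute phase genes and of granule genes. The second, TATATA, resembles a TATA box and matched 2 times with overlap. Its matches begin 55 and 53 bases before the RefSeq start, and the C/EBP match begins 99 bases before it. The gene span given above reaches to 46715700 and so overlaps the window. The last bases shown lie inside that span, and distances from its end would be shorter.
Saa3 promoter: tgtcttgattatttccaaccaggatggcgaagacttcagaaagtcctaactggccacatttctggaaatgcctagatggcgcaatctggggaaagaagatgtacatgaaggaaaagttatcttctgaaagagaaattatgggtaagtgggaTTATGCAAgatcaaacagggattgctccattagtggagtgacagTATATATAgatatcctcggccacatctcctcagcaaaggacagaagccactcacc
Both strands were searched. Of 32851 RefSeq promoters of the same length, 9.56% held TTGCNNAA and 5.25% held TATATA. The letters TATAAA, in 12.4% of promoters, were not in this window. These matches describe the sequence and do not show binding.

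The libraries held 542 to 5502 cells, 23008 in all, with a median of 6300 to 10248 UMIs (molecules counted by unique identifiers) per cell. Between 4 and 27 cells per library had a barcode that also occurred in another library, and 2.28% to 6.46% had a recomputed doublet score over 0.15. The level of a gene in a group of cells is given in CPM, its UMIs as a part of all UMIs of those cells scaled to 1000000, with an exact Poisson interval at 95% that covers counting error only. Cells were clustered without both genes and without other acute phase genes, and 24 of 26 clusters were named from marker genes as X-like, for 14 classes. The 19 mature neutrophil-like cells of adjacent tissue Tim3-KD held no Saa3 UMI, which allows up to 35.6 CPM, and that library enters no neutrophil comparison.

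Saa3 was higher at later neutrophil stages, and mature neutrophil-like cells held most of it in the lesion libraries. In promyelocyte-like cells Saa3 was at 8.87 CPM in micrometastasis Ctrl, 8.89 in micrometastasis Tim3-KD, 3.94 in macrometastasis Ctrl and 10.0 in macrometastasis Tim3-KD. In mature neutrophil-like cells the Saa3 level was 279 CPM for adjacent tissue Ctrl. It was 2047 and 2003 CPM for micrometastasis (Ctrl, then Tim3-KD, as in each pair below), and 3408 and 2158 CPM for macrometastasis. Every library with enough neutrophils thus had its highest neutrophil level in the mature cells. Within micrometastasis Ctrl, the mature level was 17.7 times the myelocyte-like level (16.6 to 18.9). The same ratio was 19.5 in micrometastasis Tim3-KD, 11.6 in macrometastasis Ctrl and 16.0 in macrometastasis Tim3-KD. In adjacent tissue it rested on 4 Saa3 UMIs in 126 myelocyte-like cells, and was 404 (157 to 1486). Metamyelocyte-like cells lay between both stages in micrometastasis, at 284 and 475 CPM, but at 250 and 107 CPM they were below the myelocyte-like cells (294 and 135) in macrometastasis. Mature cells held 68.6% and 63.9% of all Saa3 UMIs in the micrometastasis libraries, and 91.0% and 66.1% in those of macrometastasis.

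Orm1 was highest in myelocyte-like or metamyelocyte-like cells and lower at the mature stage, where Saa3 was highest. Myelocyte-like cells held Orm1 at 207 CPM for adjacent tissue Ctrl, at 278 and 466 CPM for micrometastasis and at 620 and 438 CPM for macrometastasis. Mature neutrophil-like cells held it at 11.5, 22.4, 44.4, 78.4 and 50.9 CPM in the same order. The ranges of these stages did not overlap across libraries. The pair was chosen by such levels, and how many other genes do the same was not counted. The myelocyte-like level was 18.1 times the mature level in adjacent tissue (13.6 to 24.5), 12.4 and 10.5 times in micrometastasis, and 7.90 and 8.62 times in macrometastasis. Between myelocyte-like and metamyelocyte-like cells the order was less clear. The ratio was 1.08 (0.964 to 1.20) in macrometastasis Ctrl and 0.987 (0.902 to 1.08) in macrometastasis Tim3-KD, so these neighbours did not differ beyond counting error there. Promyelocyte-like cells held 18.6, 37.9, 115 and 16.8 CPM in the lesion libraries, below the mature level in each but macrometastasis Ctrl, and 61 of the 175 Orm1 UMIs behind the value of 115 came from 1 cell.

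**Figure D1:**
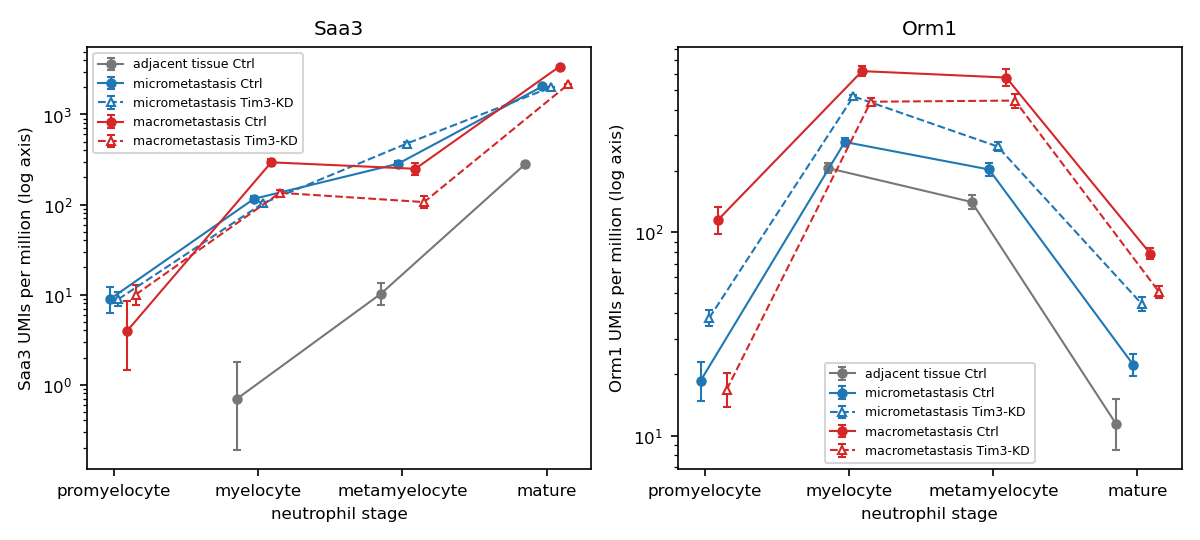
Saa3 (left) and Orm1 (right) by neutrophil stage, in CPM on a log axis; each line is 1 library with at least 20 cells per stage, filled circles are Ctrl, open triangles Tim3-KD, and bars are 95% counting intervals. Saa3 was highest in mature cells in each library (279 to 3408) and Orm1 was lower there (11.5 to 78.4) than in myelocyte-like cells (207 to 620).

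Outside the neutrophils the genes parted further. Cells of neutrophil classes held 97.5% to 99.4% of all Orm1 UMIs in the lesion libraries. Saa3 was also found in monocyte-like cells, where adjacent tissue Ctrl had 122 CPM, the micrometastasis libraries 840 and 612 CPM, and those of macrometastasis 284 and 555 CPM. It was found in lesion macrophage-like cells as well, at 321, 2383, 607 and 4334 CPM in the same lesion libraries. In both Tim3-KD libraries the pooled lesion macrophage-like level was above that of mature neutrophil-like cells. This did not hold for a subset with Trem2 and Spp1, described below, which held Saa3 at 228 and 376 CPM in these libraries. Orm1 in monocyte-like cells stayed between 0.283 and 3.42 CPM.

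**Figure D2:**
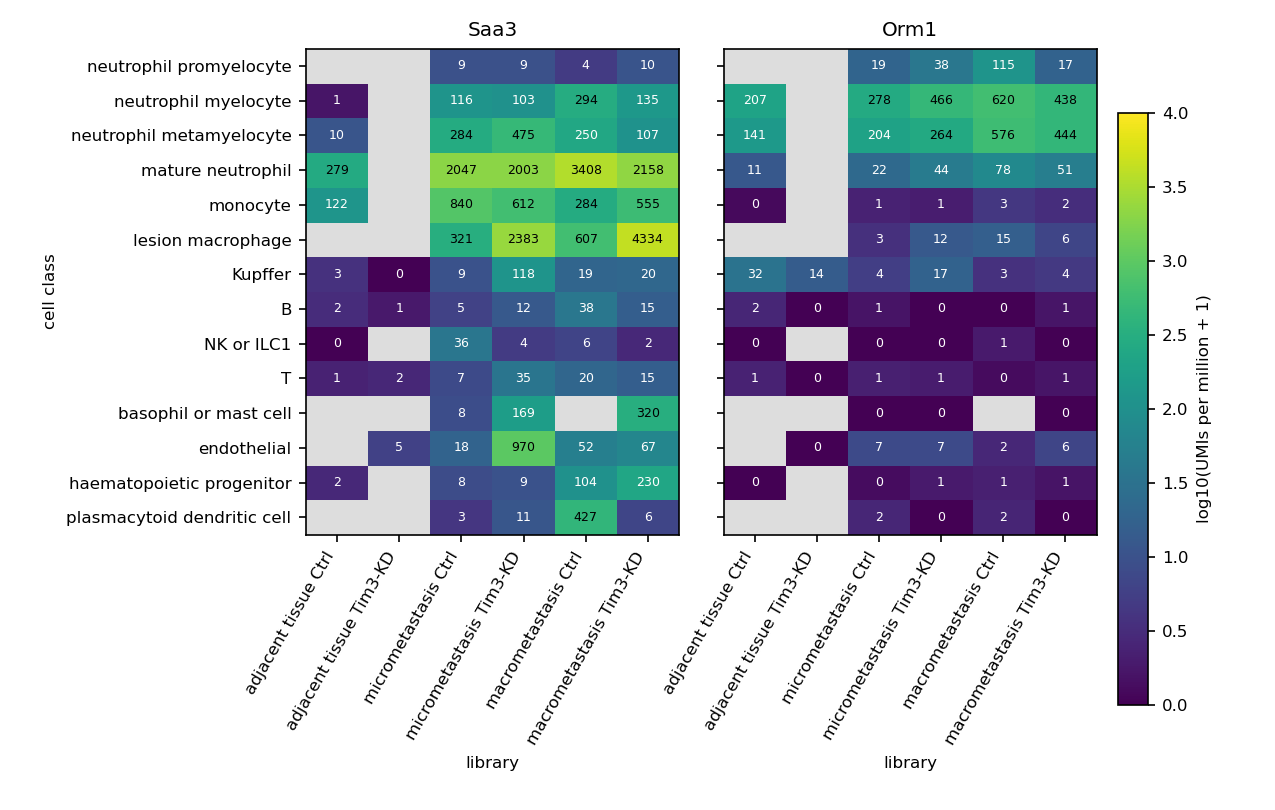
Level of Saa3 (left) and Orm1 (right) in each cell class (lines) and library (columns); numbers are CPM, colours log10(CPM + 1), and grey marks classes under 20 cells. Orm1 was concentrated in myelocyte-like and metamyelocyte-like cells, whereas Saa3 was high in mature neutrophil-like, monocyte-like and lesion macrophage-like cells.

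Saa3 was spread less evenly over mature neutrophil-like cells than Orm1 over myelocyte-like cells. After thinning each cell to 1500 UMIs, a Saa3 UMI was found in 27.8% (25.6% to 30.1%, exact binomial) of mature neutrophil-like cells in micrometastasis Ctrl and 37.1% in Tim3-KD. In macrometastasis these shares were 39.2% and 27.8%. Before thinning they were 33.9%, 45.0%, 47.0% and 36.2%. B-like cells, which should lack Saa3, held a UMI in 0.770%, 1.41%, 1.16% and 1.71% of cells after thinning, and T-like cells in 1.15%, 1.38%, 0.630% and 0.629%. The share in mature neutrophil-like cells was far above this background in each lesion library. Median depths in micrometastasis Ctrl were 6001.5 UMIs for mature neutrophil-like and 3484 for B-like cells. In adjacent tissue the share was 5.78%, and 8.91% before thinning.

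The cells that held Saa3 often held much of it. In the lesion libraries 353, 545, 542 and 430 mature cells had 10 or more Saa3 UMIs. The top 5% of mature cells held 52.3%, 42.3%, 40.6% and 53.3% of the Saa3 UMIs of their class. For Orm1 in myelocyte-like cells the top 5% held 21.5%, 18.9%, 18.0% and 24.8%, and 85.8% to 96.2% of the cells had an Orm1 UMI. After thinning, that share was 24.6%, 42.5%, 49.1% and 42.6%. Mature cells with 10 or more Saa3 UMIs held Orm1 at 14.9 CPM, against 24.4 in the other mature cells, in micrometastasis Ctrl, a ratio of 0.613 (0.423 to 0.867). The ratio was 0.756 (0.634 to 0.897) in micrometastasis Tim3-KD and 0.701 (0.580 to 0.843) in macrometastasis Tim3-KD. In macrometastasis Ctrl, at 73.4 against 81.4 CPM, it was 0.902 (0.789 to 1.03), a difference within counting error. These ratios pool clusters of mature cells that differ in both genes, as given below, and no comparison was made within clusters. Metamyelocyte-like cells of micrometastasis Tim3-KD went the other way, with Orm1 at 303 CPM in the cells with much Saa3 and 249.8 in the others, a ratio of 1.21 (1.10 to 1.34).

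**Figure D3:**
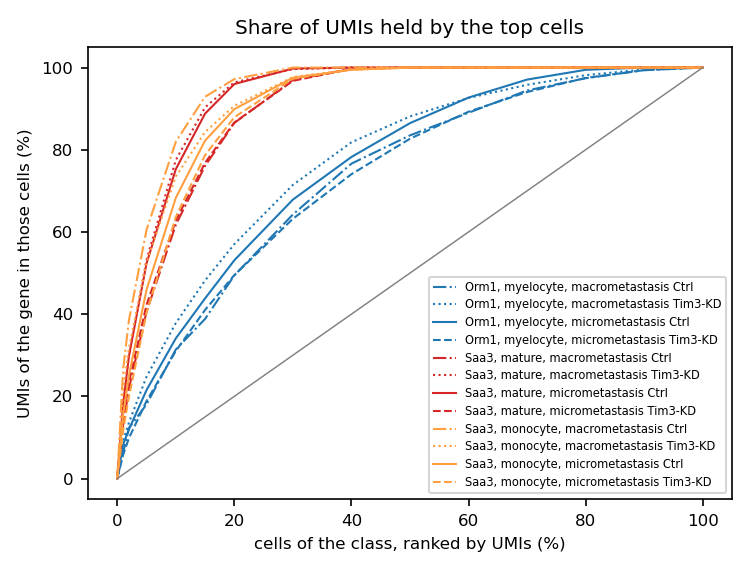
Share of a gene's UMIs (vertical axis, %) held by the cells of a class ranked by those UMIs (horizontal axis, %), 1 line per lesion library; the grey diagonal is an even spread. Saa3 in mature neutrophil-like and monocyte-like cells was held by few cells, with 40.6% to 53.3% in the top 5% of mature cells, and Orm1 in myelocyte-like cells lay nearer to the diagonal.

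Some early neutrophils with much Saa3 also had high doublet scores. The authors removed doublets with scrublet before deposit. A new score was above 0.15 in 36.1% of the 72 myelocyte-like cells with 10 or more Saa3 UMIs, against 6.31% of the other myelocyte-like cells. In metamyelocyte-like cells the shares were 16.5% and 3.40%, and in mature cells 6.58% and 3.32%. The part of doublets in the Saa3 level of the early stages was not tested.

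Mature neutrophil-like cells were made up of 4 clusters, and Saa3 differed among them. Cluster 0, led by Igfbp6, Csta3 and Cxcr2, the chemokine receptor of circulating neutrophils, held Saa3 at 4945 and 4388 CPM in micrometastasis (Ctrl and Tim3-KD). Cluster 1, led by Prok2 and the stefin genes Stfa2 and Stfa3, held 586 and 839 CPM. The mature name of cluster 1 was close to a tie. It had 5 mature neutrophil markers at least 2-fold higher, against 4 of metamyelocytes, and 1 of each in its 10 leading genes. Cluster 2, led by Acod1, the gene of the itaconate-producing enzyme, with Ccrl2 and Ptgs2, held 2333 and 4351 CPM. Cluster 3, led by Bcl2l15, Arrdc4 and the decoy receptor gene Il1r2, came almost all from macrometastasis, where it held 3655 and 3147 CPM. Cluster 1 was lowest in Saa3 in each lesion library in which clusters of at least 20 cells could be compared. Its Orm1 level was instead the higher one, at 35.2 and 58.9 CPM in micrometastasis against 9.97 and 13.4 in cluster 0.

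Tim3-KD was compared with Ctrl at the same site, to see how immune cells differed when the tumour cells carried the knockdown. Over all mature neutrophil-like cells of micrometastasis, the levels of 2047 and 2003 CPM gave a Saa3 ratio of 0.979 (0.962 to 0.995). Within clusters the values moved apart. The ratio was 0.887 (0.867 to 0.908) in cluster 0, 1.43 (1.38 to 1.49) in cluster 1 and 1.87 (1.80 to 1.93) in cluster 2. The cells were also shared out differently, with 531, 520 and 497 Ctrl cells in clusters 0, 1 and 2 and 730, 888 and 211 Tim3-KD cells. The near-equal pooled level therefore does not hold within clusters, and its direction turned under other clusterings. In finer clusters Saa3 was higher in Tim3-KD in 5 of 6 and lower in 1, each beyond counting error.

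In mature cells of macrometastasis the levels of 3408 and 2158 CPM gave a Saa3 ratio of 0.633 (0.624 to 0.642). Cluster 2 was lower in Tim3-KD (ratio 0.581) and cluster 3 slightly lower (0.861), while cluster 1 was higher (2.39) with only 24 Ctrl cells. With each cluster given equal weight the log2 ratio was 0.08 instead of -0.66. In finer clusters Saa3 was lower in Tim3-KD in 4 of 5 and higher in 1, each beyond counting error. Neither site reached a 2-fold difference for Saa3 in the pooled class. Of all genes with at least 100 UMIs, 1.04% were at least 2-fold higher and 4.06% lower in Tim3-KD mature cells of micrometastasis, and 3.61% and 1.74% in macrometastasis.

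Orm1 in early neutrophils was higher in Tim3-KD in micrometastasis and lower or level in macrometastasis. In myelocyte-like cells of micrometastasis, 278 CPM for Ctrl and 466 CPM for Tim3-KD gave a ratio of 1.68 (1.6 to 1.76). In metamyelocyte-like cells the ratio was 1.30 (1.19 to 1.42), and in mature cells 1.99 (1.72 to 2.30). In each of the finer clusters of myelocyte-like and metamyelocyte-like cells Orm1 was higher too, at 1.46 and 1.46 times Ctrl in the former and 1.62 and 1.56 times in the latter. The Ctrl and Tim3-KD levels thus differed in one direction across these stages. In macrometastasis the ratio was 0.707 (0.657 to 0.762) in myelocyte-like, 0.771 in metamyelocyte-like and 0.649 in mature cells. Finer clusters differed less. The only myelocyte-like one that could be compared had a ratio of 0.857 (0.783 to 0.937), and the only metamyelocyte-like one 1.06 (0.915 to 1.22), within counting error. Of 4 mature ones, 1 was lower beyond counting error, at 0.556 (0.397 to 0.765), and the others had ratios of 0.831, 1.01 and 1.14. In micrometastasis 4 of 6 mature ones were higher beyond counting error and none lower. Only 53 Ctrl and 101 Tim3-KD myelocyte-like cells lay behind the macrometastasis values.

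In monocyte-like cells the pooled and the within-cluster Saa3 differences had opposite signs in micrometastasis. The pooled levels were 840 CPM for Ctrl and 612 CPM for Tim3-KD. In cluster 8, led by the monocyte genes Ms4a4c, Thbs1 and Ccr2, it was 1175 and 2245 CPM, a ratio of 1.91 (1.85 to 1.97). In cluster 5, led by F13a1 and Ly6c2 with the replication gene Pclaf, it was 11 and 38.1 CPM, a ratio of 3.46 (2.39 to 5.20). Both clusters were higher in Tim3-KD. Cluster 5 had 98 Ctrl and 391 Tim3-KD cells, so the class of Tim3-KD held more of the cells with little Saa3. In macrometastasis cluster 8 went from 134 to 1139 CPM, a ratio of 8.49 (7.42 to 9.76), and cluster 9, led by Thbs1, Vcan and Fn1, from 672 to 1892 CPM. The pooled macrometastasis ratio was 1.96 (1.81 to 2.12).

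**Figure D4:**
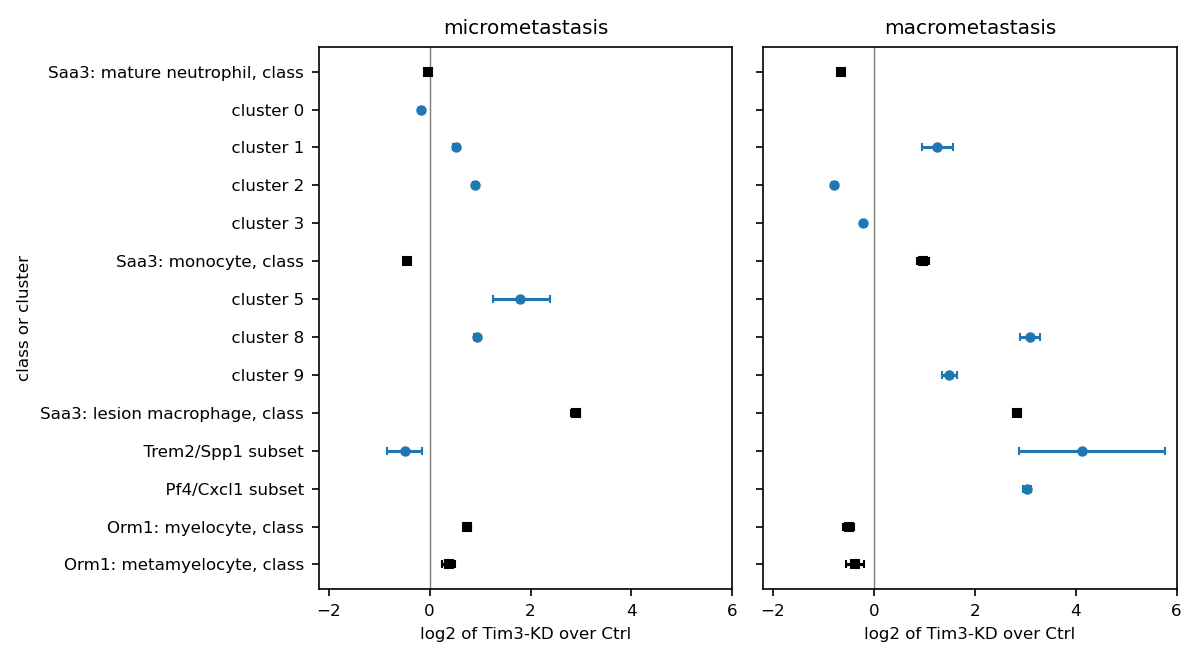
Log2 ratio of Tim3-KD over Ctrl in micrometastasis (left) and macrometastasis (right); black squares are whole classes, blue circles are clusters or subsets with at least 20 cells in both libraries, and bars are 95% counting intervals. The monocyte-like class lay below 0 in micrometastasis while clusters 5 and 8 lay above it, and Orm1 lay above 0 in micrometastasis and below 0 in macrometastasis.

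Lesion macrophage-like cells, a class named from Trem2, Spp1 and other markers of macrophages in lesions, had higher pooled Saa3 in Tim3-KD at both sites. The name rested on 2 of the 10 leading genes. At least 2-fold higher were 3 lesion macrophage markers, but also 4 monocyte markers. In micrometastasis 414 Ctrl cells held Saa3 at 321 CPM and 131 Tim3-KD cells at 2383 CPM, a ratio of 7.42 (6.96 to 7.92). Of all genes in the class with at least 100 UMIs, 14.2% were at least 2-fold higher and 7.13% lower. Finer clustering separated 2 subsets. A Trem2 and Spp1 subset, with Ccl24 and MHC class II genes, held 406 Ctrl and 38 Tim3-KD cells, and Saa3 was at 321 and 228 CPM in it. A subset led by Pf4, Cxcl1, the hepatocyte gene Alb and Ctsl held 6 Ctrl and 92 Tim3-KD cells, with Saa3 at 512 CPM from 16 UMIs and at 3299 CPM. The 7.42-fold difference therefore set one subset against another. Within the Trem2 and Spp1 subset the ratio was 0.711 (0.558 to 0.895), but 48 of the 77 Tim3-KD UMIs came from 1 cell. Without top cells it was 0.318, without doublet scores over 0.15 it was 0.281, and without cells holding Alb it was 0.992.

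In macrometastasis most cells of both libraries lay in the Pf4 and Cxcl1 subset. The Trem2 and Spp1 subset had 26 Ctrl and 46 Tim3-KD cells there, and Saa3 was higher in Tim3-KD, at 21.5 CPM from 5 UMIs against 376 CPM, a ratio of 17.5 (7.39 to 54.5). Over the class, Saa3 levels of 607 CPM for Ctrl and 4334 CPM for Tim3-KD gave a ratio of 7.14 (6.73 to 7.58), where 5.88% of genes were at least 2-fold higher and 6.03% lower. Within the Pf4 and Cxcl1 subset 127 Ctrl cells held 682 CPM and 131 Tim3-KD cells 5575 CPM. A single Ctrl cell gave 811 of the 1235 Saa3 UMIs, and a single Tim3-KD cell gave 2724 of 9595. Without the cell of most UMIs in each library the ratio of the subset was 17.1 instead of 8.17. Without cells of a doublet score over 0.15 it was 4.09, and without barcodes shared between libraries 5.93. Saa3 was found in 16.5% of the Ctrl and 31.3% of the Tim3-KD cells of the subset.

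RNA of hepatocytes was also found in this class. Alb, the albumin gene of hepatocytes, was at 25.4, 103, 549 and 310 CPM in the lesion macrophage-like cells of micrometastasis (Ctrl and Tim3-KD) and macrometastasis. Between 3 and 5 of 11 hepatocyte markers were measured there, none was at 0, and their summed level was 405, 1045, 1558 and 1287 CPM. Most of that sum was the listed marker Trf, at 370.5, 911, 842 and 894 CPM. Trf was also at 241 CPM in monocyte-like cells of micrometastasis Ctrl, where Alb was at 3.155 CPM. The sums rest on 3 markers in micrometastasis and 5 in macrometastasis, and cannot be compared between these sites. An Alb UMI was in 88.2% and 86.3% of the macrometastasis cells of the Pf4 and Cxcl1 subset. Among its cells without one, 15 Ctrl cells held no Saa3 UMI and 18 Tim3-KD cells held 32. In micrometastasis the 40 Tim3-KD cells of that subset without an Alb UMI held Saa3 at 3183 CPM, close to the 3299 CPM of all its cells. Orm1 in the lesion macrophage-like class was low, at 2.65, 12.2, 15.2 and 5.75 CPM, and the part of hepatocyte RNA in it was not tested.

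Kupffer-like cells, the resident macrophages of liver, held little Saa3. Adjacent tissue Ctrl had 1 Saa3 UMI in 31 Kupffer-like cells (2.66 CPM), and the 106 cells of adjacent tissue Tim3-KD had none, which allows up to 2.39 CPM. The levels were 9.31 and 118 CPM for micrometastasis, and 19.4 and 20.4 CPM for macrometastasis. The micrometastasis Tim3-KD library stood apart. Its ratio to Ctrl was 12.7 (8.27 to 20.3), where 2.69% of the genes measured in Kupffer-like cells were at least 2-fold higher. After thinning, 3.52% of these Kupffer-like cells (1.62% to 6.57%) had a Saa3 UMI against 1.82% in Ctrl, 1.41% in B-like and 1.38% in T-like cells of the same library. The median depths of these were 8683, 8691.5, 4233 and 4084 UMIs. The difference lay in 8 of 256 cells with 11 to 78 Saa3 UMIs, and in Ctrl no Kupffer-like cell had more than 3. None of the 11 Kupffer-like cells with 10 or more Saa3 UMIs in the lesion libraries had a doublet score over 0.15. Most of these 11 cells held Alb UMIs, from 1 to 7 per cell. The cells with 78 and 47 Saa3 UMIs, both of micrometastasis Tim3-KD, held none. The part of hepatocyte RNA in their Saa3 level was not tested.

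Orm1 in Kupffer-like cells had levels of 31.9 and 13.6 CPM for adjacent tissue, 4.45 and 17.4 CPM for micrometastasis and 2.73 and 3.61 CPM for macrometastasis. No such cell had more than 6 Orm1 UMIs. Alb in the same cells was at 255, 315, 78.9, 277, 178 and 94.1 CPM, with 3 to 6 of 11 hepatocyte markers measured, none at 0 and a summed level of 1062 to 1788 CPM. Trf made most of that sum, at 798.5 to 1251 CPM. Without cells that held an Alb UMI, Orm1 in micrometastasis was at 3.47 and 12.1 CPM.

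Single cells made the Saa3 level of several other classes. In haematopoietic progenitor-like cells of macrometastasis Tim3-KD, 1116 of 1126 Saa3 UMIs were in 1 cell, and in Ctrl all 167 were. In plasmacytoid dendritic cell-like cells of macrometastasis Ctrl, 223 of 265 were in 1 cell. The B-like level of 37.6 CPM in macrometastasis Ctrl was 7.0 without 1 cell. In adjacent tissue Ctrl, 1 lesion macrophage-like cell held 908 of the library's 3060 Saa3 UMIs, a value at the cap of the deposited scores and so a lower bound.

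Across sites, Saa3 was higher in micrometastasis than in adjacent tissue at each myeloid stage compared in Ctrl. In mature cells the ratio was 7.33 (6.92 to 7.77), where 3.98% of genes were at least 2-fold higher. In metamyelocyte-like cells it was 27.9 (21.0 to 37.7), beside 7.61% of genes, and in myelocyte-like cells 167 (65.1 to 616), beside 8.17%. In monocyte-like cells it was 6.87 (6.41 to 7.38), beside 8.55%. Within cluster 5 of the monocyte-like cells Saa3 was instead lower in micrometastasis, at 11 against 28.1 CPM. Orm1 differed less between these sites, with ratios of 1.34 (1.25 to 1.44) in myelocyte-like and 1.95 (1.44 to 2.69) in mature cells. In metamyelocyte-like cells the Orm1 ratio was 1.45, and its log2 value of 0.53 turned to between -0.30 and -0.10 in 3 other clusterings.

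From micrometastasis to macrometastasis in Ctrl, the Orm1 ratio in mature cells was above that of Saa3. The Orm1 level went from 22.4 to 78.4 CPM, a ratio of 3.51 (3.06 to 4.03), while Saa3 had a ratio of 1.66. The log2 value of that Saa3 ratio, 0.74, was 0.055 at a lower clustering resolution and turned to -0.57 with equal cluster weights. Of all genes in these cells 25% were at least 2-fold higher, and the trimmed mean of the log2 ratios over genes was 0.53. Relative to it the log2 ratio was 1.28 for Orm1 and 0.21 for Saa3. Saa3 in monocyte-like cells went the other way, from 840 to 284 CPM. In myelocyte-like cells Orm1 had a ratio of 2.23 (2.08 to 2.39).

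Other acute phase genes did not follow as a group. Of 28 listed genes, 6 were in the micrometastasis matrix, and the other serum amyloid A and orosomucoid genes were not analysed here. In mature cells of micrometastasis 4 had at least 100 UMIs. The fibrinogen gene Fgb was at 2.09 CPM for Ctrl and 5.5 CPM for Tim3-KD (log2 ratio 1.38), none was 2-fold lower, and the median log2 ratio was -0.43 against -0.14 over all genes. Of all genes 1.04% were higher and 4.06% lower in these cells. In macrometastasis 10 were measured and 1 was higher, Steap4, the gene of a metalloreductase, at 90.8 CPM for Ctrl and 268 CPM for Tim3-KD. Lcn2, the lipocalin of neutrophil granules, was at 5175 and 4979 CPM there, the median was -0.21 against -0.12 over all genes, and 3.61% of all genes were higher. In lesion macrophage-like cells of micrometastasis 1 of 4 was higher, the metallothionein gene Mt2 (2.59), and 1 lower, the receptor antagonist gene Il1rn (-1.21), with a median of 0.54 against 0.12 over all genes, of which 14.2% were higher and 7.13% lower. In macrometastasis none of 10 was higher and 2 were lower, Fgg (-1.19) and Serpina1b (-1.28), with a median of 0.023 against -0.071 over all genes, of which 5.88% were higher and 6.03% lower. The hepatocyte genes Alb and Apoa1 were also lower in Tim3-KD in those cells, Alb at 549 and 310 CPM and Apoa1 at 119.5 and 56.2 CPM. In Kupffer-like cells of micrometastasis 2 of 4 were higher, the complement gene Cfb, at 89.8 and 189 CPM, and Fgb, at 21.5 and 78.3 CPM. The median there was 0.70 against 0.14 over all genes, of which 2.69% were higher. Alb moved with them, at 78.9 and 277 CPM, as did Apoa1, at 21.0 and 64.8 CPM, and in mature cells of micrometastasis Alb was at 11.9 and 16.5 CPM. The part of hepatocyte RNA in the fibrinogen and Serpina1b values was not tested.

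The listed inducers and their signalling genes also differed between cell types. In mature cells of micrometastasis, none of 11 measured was 2-fold higher in Tim3-KD and 2 were lower. These were the cytokine gene Il1b, at 5089 CPM for Ctrl and 1868 CPM for Tim3-KD, and the feedback inhibitor gene Socs3 (log2 ratio -2.10), and the median was -0.55 against -0.14 over all genes, of which 1.04% were higher and 4.06% lower. In macrometastasis 1 of 10 was higher, the cytokine gene Osm (1.39), with a median of -0.14 against -0.12 over all genes, of which 3.61% were higher. In lesion macrophage-like cells of micrometastasis 5 of 12 were higher, among them Il1a (2.67), Tnf (2.12) and Nfkbiz (2.27), a co-regulator of NF-kappaB, and 1 was lower, Cebpe (-1.02). Their median was 0.79 against 0.12 over all genes, of which 14.2% were higher and 7.13% lower. These cells came from different subsets, as for Saa3. Il1b was lower in them, at 1800 CPM for Ctrl and 1152 CPM for Tim3-KD (-0.64). In lesion macrophage-like cells of macrometastasis, where pooled Saa3 was also higher in Tim3-KD, Il1a (-0.05), Tnf (-0.57) and Nfkbiz (-0.13) were not higher. Osm (2.00) and Socs3 (0.49) were higher there. Of the receptors, none of 3 measured in mature cells of micrometastasis differed 2-fold, with the formyl peptide receptor gene Fpr1 at 241 and 174 CPM and the Toll-like receptor gene Tlr4 at 38.5 and 21.6 CPM.

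The genes most like each member were found over 57 combinations of class and library with at least 50 cells, among 1642 genes, by Pearson's r of log2(CPM + 10). The points share libraries, and the values are a description. For Saa3 they were the chemokine receptor gene Ccr1 (0.820), the platelet-activating factor receptor gene Ptafr (0.794), Noct (0.792), Rhov (0.792) and the lectin receptor gene Clec4e (0.788). For Orm1 they were Inhba (0.916), a subunit of activin, the fatty acid receptor gene Gpr84 (0.903), the lactoferrin gene Ltf (0.902), Olfm4 (0.894) and Cd177 (0.885). Ltf, Olfm4 and Cd177 are genes of neutrophil specific granules or their membranes. Between Saa3 and Orm1 the value was 0.267.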

How the data were processed

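CD45+ cells of 6 liver libraries were profiled by 10x Genomics 3' single-cell RNA-seq. The authors trimmed reads with Trim Galore 0.4.3, mapped them with STAR 2.7.7a to GRCm38, counted UMIs over exons and introns, filtered cells and removed doublets. The deposited values are scaled scores, capped at 10, of 1 matrix per site. They were inverted to UMIs and cell totals, since the planned descriptions needed UMI counts. Of the recovered values, 99.99947%, 99.99983% and 99.99678% lay within 0.05 of a whole number (adjacent tissue, micrometastasis, macrometastasis), and 0.144%, 0.160% and 0.153% were at the cap. The inversion was tested on simulated data.

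Cells were clustered with scanpy 1.11.5 on 1635 shared genes (30 components, 15 neighbours, Leiden resolution 1, seed 1). Both genes and 5 other acute phase genes were left out. A cluster was named from marker lists by the markers among its 10 leading genes. Levels are summed UMIs in CPM with exact Poisson intervals, ratios have exact conditional intervals, and shares are exact binomial. A ratio needed at least 20 cells in both libraries. The genes, lists and comparisons were chosen with earlier results of these data known. Named genes are the members, the acute phase, receptor and inducer lists and the 5 genes most like each member. The leading genes of clusters, finer subsets and single cells were chosen after their values were seen.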

Additional observations from a re-analysis of the deposited data

How the results depend on the processing

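Counting error is the only error known here, since each group has 1 library, and early neutrophils of macrometastasis and Kupffer-like cells of adjacent tissue are few. No paired analysis was possible because each group holds 1 library. Of 754 values of 66 ratios under the alternatives, 547 stayed within the counting interval of the main value, 168 moved out of it and 39 changed direction. A change of direction was counted only where the main ratio differed from 1 beyond counting error. Of 650 values of 65 levels, 445 stayed within counting error and 205 moved. The causes were not tested except where fewer or other cells enter by construction. Leaving out the cell of most UMIs and weighting clusters equally were chosen after seeing the data.

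The Saa3 level of mature cells in micrometastasis Ctrl (2047 CPM) was 1948 without cells under 3000 UMIs, 2112 without doublet scores over 0.15, 3403 at resolution 0.5, 2913 at resolution 2, 3642 with the acute phase genes kept in the clustering, 2079 without cells holding Alb, 3012 as a mean over cells and 2015 without the top cell. The log2 ratios of Saa3 in mature cells, Tim3-KD over Ctrl, in these settings were as follows. In micrometastasis (-0.03) they were -0.0048 without shallow cells, 0.0048 without doublet scores, 0.34 and 0.16 at resolutions 0.5 and 2, 0.40 with the genes kept, -0.092 as a mean over cells, 0.12 relative to the trimmed mean and 0.41 with equal cluster weights. In macrometastasis (-0.66) they were -0.73, -0.69, -0.60, -0.82, -0.81, -0.63, -0.54 and 0.085 in that order, and -0.55 without Alb cells. For micrometastasis over adjacent tissue in Ctrl (2.87) they were 2.79 without shallow cells, 3.08 at resolution 0.5, 3.15 with the genes kept, 2.97 without Alb cells, 3.11 without top cells and 4.75 with equal weights. For macrometastasis over micrometastasis in Ctrl (0.74) they were 0.77, 0.055, 0.41 and 0.66 in the first 4 of these settings, 0.55 as a mean over cells, 0.21 relative to the trimmed mean and -0.57 with equal weights. In Tim3-KD (0.11) this turned to -0.89 and -0.26 at resolutions 0.5 and 2, -0.80 with the genes kept, -0.52 relative to the trimmed mean and -1.35 with equal weights.

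In lesion macrophage-like cells, Saa3 in Tim3-KD over Ctrl of micrometastasis (2.89) was -0.56 at resolution 2, 2.69 without Alb cells, 2.80 as a mean over cells and 2.75 relative to the trimmed mean. In macrometastasis (2.84) it was 1.81 without doublet scores, 3.40 at resolution 2, 2.66 with the genes kept, 2.38 without shared barcodes, 4.57 without Alb cells, 2.57 as a mean over cells and 3.90 without top cells. Macrometastasis over micrometastasis turned in Ctrl (0.92) to -3.02 at resolution 2, -4.18 without Alb cells and -0.43 without top cells, and in Tim3-KD (0.86) to -0.14 without doublet scores and -2.30 without Alb cells. In Kupffer-like cells of Ctrl it turned from 1.06 to -0.38 without Alb cells. In monocyte-like cells the Tim3-KD over Ctrl ratio of micrometastasis (-0.46) turned to 0.080 at resolution 2, 0.40 as a mean over cells and 1.36 with equal weights.

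In early neutrophils, Saa3 in Tim3-KD over Ctrl turned in promyelocyte-like cells of macrometastasis (1.34) to -2.35 at resolution 2. In myelocyte-like cells of micrometastasis (-0.17) it turned to 0.0015 at resolution 2 and 0.36 without top cells, and macrometastasis over micrometastasis in Tim3-KD (0.39) to -0.27 and -0.072. In metamyelocyte-like cells of macrometastasis (-1.23) it turned to 0.17 and 1.43 at resolutions 0.5 and 2 and to 1.25 with the genes kept. Orm1 in myelocyte-like cells, Tim3-KD over Ctrl, was 0.82 without doublet scores, 0.54 at resolution 2 and 0.83 relative to the trimmed mean in micrometastasis (0.74). In macrometastasis (-0.50) it was -0.22 at resolution 2, -0.62 without Alb cells and -0.38 as a mean over cells. Orm1 of macrometastasis over micrometastasis in Tim3-KD turned in myelocyte-like cells (-0.09) to 0.36 at resolution 2 and 0.016 as a mean over cells, and in mature cells (0.20) to -0.44 relative to the trimmed mean and -0.64 with equal weights. Orm1 of micrometastasis over adjacent tissue in metamyelocyte-like cells (0.53) turned to -0.22, -0.10 and -0.30 at resolutions 0.5 and 2 and with the genes kept. Orm1 in lesion macrophage-like cells of macrometastasis, Tim3-KD over Ctrl (-1.40), turned to 0.080 without Alb cells. The median log2 ratio of the acute phase list in lesion macrophage-like cells, with 20 instead of 100 UMIs, was 1.26 in micrometastasis (0.54) and -0.039 in macrometastasis (0.02). Without thinning, the shares of cells with a UMI were 33.9%, 45.0%, 47.0% and 36.2% for Saa3 in mature cells, and 85.8%, 96.0%, 96.2% and 96.0% for Orm1 in myelocyte-like cells.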
